A study of Mus musculus with 14 samples.

Results

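The comparison covered all Atoh1-lineage cells sorted from the whole hindbrain of 3 E18.5 mouse embryos carrying the serine-193-to-alanine allele of *Atoh1* (S193A) and of their 3 control littermates (Ctrl). *Atoh1* is the basic helix-loop-helix factor that specifies the glutamatergic neurons born at the rhombic lip. The members were 55054 cells with at least 1000 detected genes and under 10% mitochondrial UMIs, 26648 from control and 28406 from S193A embryos. They came out of 64049 barcodes deposited for these 6 libraries and 150188 barcodes in the 14 libraries of the series. Counts of unique molecular identifiers (UMIs) were summed into one profile per embryo, with no restriction to pontine cells, so the embryo was the unit of replication. The question the comparison addresses is which genes differ, late in gestation, across the whole population that had expressed *Atoh1*.

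Control embryos were *Atoh1* Cre/+; Rosa lsl-tdTomato/+ and mutant embryos were *Atoh1* Cre/S193A; Rosa lsl-tdTomato/+, with C57BL/6J given as the strain. The Cre cassette takes the place of the *Atoh1* coding region, so both genotypes carried 1 null allele, and the comparison was of the S193A allele with a wild-type allele over that null. Cre recombination marked the lineage permanently with tdTomato, and live TdTom+ DAPI- cells were sorted, so cells that had stopped expressing *Atoh1* were included and cells outside the lineage should have been removed. Each library was 1 embryo, taken with a littermate of the other genotype, in 3 independent rounds that share a replicate number, and the littermates of each E18.5 pair were of the same sex. The sequence change cannot be read from 3' tags: UMIs of the S193A and of the wild-type allele are the same feature, and the level of *Atoh1* therefore does not check the genotype labels.

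The rhombic lip is the dorsal edge of the embryonic hindbrain. Its rostral part gives rise to cerebellar granule cell progenitors, which express *Atoh1* while they divide under Sonic hedgehog in the external granule layer. Its caudal part gives rise to the migrating precerebellar neurons of the pontine and related nuclei and to auditory and proprioceptive brainstem neurons. Granule cell progenitors are born from hindbrain without Hox expression, whereas the caudal derivatives carry Hox genes. Cells without Hox UMIs were the majority of each library (shares are given below), and the sums are weighted accordingly.

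The labelled cell type, neurons of the hindbrain, was set beside markers. A share of cells with a UMI depends on depth and includes free RNA, and many of the cells were dividing (below), so these shares describe the lineage and do not test that each cell is a neuron. In the 6 libraries 90.4 to 93.7% of the cells held a UMI of the neuronal tubulin *Tubb3*, 97.0 to 98.7% one of *Zic1* and 74.9 to 88.1% one of *Barhl1*, both factors of this lineage. The WPRE sequence of the reporter transcript was found in 87.5 to 96.6%. Shares were lower for the glutamate transporter gene *Slc17a6* (40.8 to 55.02%) and the homeobox gene *Meis2* (7.65 to 18.47%). *Gad2*, a marker of inhibitory neurons, had a UMI in 4.43 to 8.97% of the cells and the astrocyte marker *Aqp4* in 0.523 to 2.55%. UMIs of *Aif1* (microglia), *Cldn5* (endothelium) and *Sox10* (oligodendrocyte lineage) were found in at most 0.701% of the cells of any library, and those of *Hbb-bs* (erythroid) and *Ttr* (choroid plexus) in 0.247 to 12.7% and 0.361 to 13.8%. Summed UMIs ran from 104303433 to 180422068 per library over 8061 to 11355 kept cells. The median cell held 12344 to 16772 UMIs in control and 10974 to 14400.0 UMIs in S193A libraries, and any 2 libraries shared 14 to 34 barcodes. In a sum over cells, fewer cells of a type and less RNA per cell cannot be told apart.

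Across the whole sorted population 29 genes were higher and 35 lower in S193A embryos, out of 17877 tested. These are 0.358% of the genes in either direction, 0.162% higher and 0.196% lower. A gene was called at a Benjamini-Hochberg adjusted p below 0.05 in edgeR's quasi-likelihood test, with the littermate pair in the model, and an absolute log2 change above 0.25. The changes were modest: the median absolute log2 change of the 64 genes was 0.46, and 9 of them, 6 higher and 3 lower, changed 2-fold or more. For 47 of the 64 genes, 21 higher and 26 lower, the 3 libraries of a genotype all lay on 1 side of the other 3 in CPM, the unit of every level below (UMIs relative to the library's total after TMM scaling), against 5.38% of all genes tested. The number of calls rested heavily on single litters: it was 266 without pair 1, 44 without pair 2 and 13 without pair 3. It also rested on the pairing, since the fit that ignored the pairs called 0 genes (402 at an unadjusted p below 0.05). Having been called on the same 3 pairs, the 64 genes were likely to keep their direction in the 3 fits without 1 pair, and all did. The call was also kept in all 3 fits by 5 of them, *Gm17322*, *Loxl1*, *Col18a1*, *Vat1l* and *Pdlim3*. Of the rest, 16 kept the call in 2 of these fits, 41 in 1 and 2 in none. Each other gene described below as called over all sorted cells thus lost the call in at least 1 of these fits. *Barhl1*, *Slc17a6*, *Grin2a*, *Pou4f1*, *Myod1*, *Hgf*, *Osr1* and *Dmrta2* were among those called only in the fit without pair 1.

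**Figure D1:**
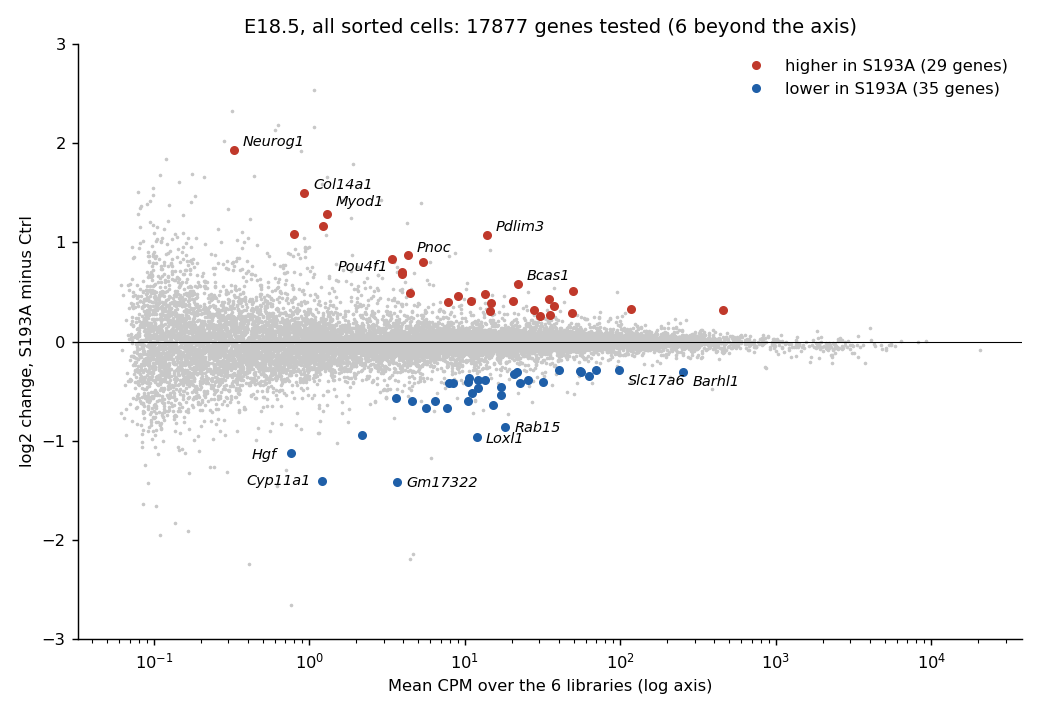
The log2 change of each of 17877 genes over all sorted E18.5 cells (vertical axis, S193A minus Ctrl) is plotted against its mean CPM over the 6 libraries (horizontal log axis), with 6 genes beyond the vertical limits. The 29 called genes that were higher (red) and the 35 that were lower (blue) stand out from a cloud centred at a median of -0.00278, and the larger changes belong to genes of low level.

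Among the genes that fell was a pair that the study lists as *Atoh1* targets. *Rab15*, which encodes a small GTPase of endosomal recycling, was at 19.6, 25.5 and 24.7 CPM in control and 9.59, 13.2 and 16.3 CPM in S193A libraries. Each S193A embryo lay below every control embryo, and the fold between the means was 1.79 (log2 change -0.86, SE 0.0862, adjusted p = 0.0250). Without 1 pair at a time the log2 change ran from -0.99 to -0.78, and the call was lost without pair 2. *Barhl1*, a homeobox factor expressed throughout the *Atoh1* lineage, was at 293, 282 and 266 CPM in control and 243, 222 and 215 CPM in S193A libraries. Here too the groups did not overlap, although the step was small (log2 change -0.31, SE 0.0363, adjusted p = 0.0154). Of the other listed targets, neither *Pcp4* (log2 change -0.18, adjusted p = 0.871) nor *Nhlh1* (log2 change -0.12, adjusted p = 0.912) passed the test over all sorted cells. The list of 5, which includes *Atoh1* itself, thus had 2 called members, both lower, where 0.358% of all genes were called. *Atoh1* was the 1 member with a positive log2 change (0.34, not called). The median of the list was -0.18, against -0.00278 over all genes. The study named these genes from its E14.5 cells of the same genotypes.

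The promoters of both genes are shown because *Atoh1* binds E-boxes and both genes changed here. They span 250 bases before to 50 bases after a RefSeq transcription start (GRCm38.p6) and are written 5' to 3' on the gene's strand. RefSeq lists 4 such windows for *Rab15* and 2 for *Barhl1*, and the one nearest the gene's annotated start is shown. Of the 3 other *Rab15* windows 0 hold CAGCTG and 1 holds CAGATG, the motifs described next, and the other *Barhl1* window holds CAGCTG. *Rab15* is on the minus strand at chr12:76822475-76822774 and *Barhl1* on the minus strand at chr2:28916619-28916918. Capitals mark the palindromic E-box CAGCTG. It begins 30 bases before the start in *Rab15* and 99 bases before it in *Barhl1*, and the second motif searched, CAGATG on either strand, is in neither window shown. In the promoter table as a whole, 16.3% of 32851 windows of this length hold CAGCTG and 17.2% hold CAGATG, and a match is a description of the letters only.
*Rab15*: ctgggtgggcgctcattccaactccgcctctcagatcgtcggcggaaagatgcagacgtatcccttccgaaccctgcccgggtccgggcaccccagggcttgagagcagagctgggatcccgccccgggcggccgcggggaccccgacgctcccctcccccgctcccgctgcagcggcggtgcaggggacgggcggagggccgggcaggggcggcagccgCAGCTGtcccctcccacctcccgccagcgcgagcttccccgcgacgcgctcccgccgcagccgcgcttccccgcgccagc
*Barhl1*: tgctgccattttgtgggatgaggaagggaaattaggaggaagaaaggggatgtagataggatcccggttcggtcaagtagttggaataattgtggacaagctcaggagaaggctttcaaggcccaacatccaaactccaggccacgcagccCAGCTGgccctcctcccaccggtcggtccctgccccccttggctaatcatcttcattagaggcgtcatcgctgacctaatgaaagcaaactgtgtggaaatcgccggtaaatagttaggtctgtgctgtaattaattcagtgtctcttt

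*Slc17a6*, the vesicular glutamate transporter that defines the excitatory neurons of this lineage, was at 103, 103 and 114 CPM in control and 87.9, 77.9 and 97.4 CPM in S193A libraries. The lowest control embryo stood above the highest mutant (log2 change -0.29, SE 0.0435, adjusted p = 0.0365). *Grin2a*, a subunit of the NMDA receptor, fell alongside it, from 11.7, 12.4 and 11.7 to 8.81, 8.56 and 9.58 CPM (log2 change -0.41, SE 0.0610, adjusted p = 0.0346). It was the single member of 33 glutamate and GABA receptor genes to pass, and 23 of the 33 had positive log2 changes (median 0.05). *Slc17a6* was the single member to pass of 28 synaptic vesicle and release genes, 16 of them positive, and of 17 pontine subtype genes.

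The steepest falls came from genes of low level. *Gm17322*, annotated as a long intergenic RNA, was at 6.04, 5.57 and 4.34 CPM in control and 2.14, 1.99 and 1.82 CPM in S193A libraries. Every mutant was well below every control (log2 change -1.41, SE 0.0900, adjusted p = 0.00112), and the log2 change stayed at -1.49 to -1.37 without 1 pair at a time. *Cyp11a1*, the enzyme of cholesterol side-chain cleavage that starts steroid synthesis, was at 1.79, 1.87 and 1.58 CPM in control and 0.605, 0.727 and 0.645 CPM in S193A libraries (log2 change -1.41, SE 0.135, adjusted p = 0.00801). The 2 annotations overlap on the same strand of chromosome 9, at chr9:57998041-58007451 and chr9:58006411-58027023, so reads of one may have been counted for the other and their falls cannot be taken as independent. Both were clearly apart between genotypes. *Hgf*, the ligand of the Met receptor, was at 1.16, 1.07 and 0.878 CPM in control and 0.626, 0.402 and 0.402 CPM in S193A libraries (log2 change -1.13, SE 0.170, adjusted p = 0.0365). *Osr1*, a zinc finger factor, was at 2.76, 3.28 and 2.46 CPM in control and 1.74, 1.57 and 1.11 CPM in S193A libraries (log2 change -0.95, SE 0.124, adjusted p = 0.0227).

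Called genes that encode secreted matrix proteins moved in both directions. They are described together after their values were seen, with no list fixed for them and no test of the group. *Loxl1*, a lysyl oxidase that crosslinks elastin, dropped from 17.5, 15.0 and 14.7 CPM in the control to 9.80, 8.04 and 6.56 CPM in the S193A libraries, with 1.94-fold between the means (log2 change -0.96, SE 0.0698, adjusted p = 0.00244). *Col18a1*, a collagen of basement membranes, went from 21.8, 20.04 and 13.8 to 14.01, 12.8 and 8.80 CPM (log2 change -0.64, SE 0.0460, adjusted p = 0.00192). In each pair the mutant had the lower value for both. The fibulins *Fbln1* (log2 change -0.39, SE 0.0497, adjusted p = 0.0208) and *Fbln2* (log2 change -0.33, SE 0.0486, adjusted p = 0.0341) were lower as well, as was *Adamtsl1*, an ADAMTS-like glycoprotein (log2 change -0.39, SE 0.0426, adjusted p = 0.0123). The metalloprotease *Adamts5* was higher (log2 change 0.40, SE 0.0630, adjusted p = 0.0443). Elastin itself, *Eln*, was higher at 35.1, 31.4 and 22.5 against 46.3, 42.2 and 30.7 CPM, with overlap (log2 change 0.43, SE 0.0348, adjusted p = 0.00340). The fibril-associated collagen *Col14a1* was also higher, from 0.504, 0.286 and 0.579 to 0.959, 0.822 and 2.35 CPM (log2 change 1.4997, SE 0.222, adjusted p = 0.0443), with the S193A embryo of replicate 3 well above the other mutants. None of 12 vascular and meningeal markers, which include other collagens, was called (median log2 change 0.26). Their summed level was 15.7 to 28.4 CPM in control and 18.04 to 43.8 CPM in S193A libraries, and their part in these changes was not tested.

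Secreted signals and their receptors contributed single genes to the falls. *Sfrp2*, a secreted Wnt antagonist, was at 15.4, 11.5 and 10.7 CPM in control and 10.6, 8.07 and 6.24 CPM in S193A libraries (log2 change -0.60, SE 0.0650, adjusted p = 0.0123), the only called member of 24 Wnt and BMP components tested. *Cdon*, a co-receptor for Hedgehog, moved from 10.4, 8.58 and 8.17 to 8.13, 6.02 and 6.21 CPM (log2 change -0.42, SE 0.0607, adjusted p = 0.0322), the only one of 14 Hedgehog pathway genes. The guidance ligand *Ntn1* moved from 11.3, 9.67 and 7.77 to 8.30, 6.92 and 6.14 CPM, with 1 S193A value above the lowest control (log2 change -0.42, SE 0.0587, adjusted p = 0.0274). The remaining named falls, with the log2 change in brackets, were in *Pdlim4*, a PDZ and LIM domain protein of actin filaments (-0.67), *Cfap77*, a protein of motile cilia (-0.67), *Mndal*, an interferon-inducible p200 protein (-0.60), *Pde2a*, a cyclic nucleotide phosphodiesterase (-0.60), and the class I histocompatibility gene *H2-K1* (-0.57). Adjusted p-values of these 5 in edgeR lay between 0.0123 and 0.0316, and a lack of overlap between genotypes was a condition for naming them.

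Of the genes that rose, *Pdlim3* had the lowest adjusted p. It encodes a PDZ and LIM domain protein that binds alpha-actinin, and stood at 9.12, 9.09 and 8.47 CPM in control and 21.9, 18.1 and 16.6 CPM in S193A libraries. The 3 control values lay within 1 CPM of each other, and the 3 S193A values were all higher, 2.12-fold by the means (log2 change 1.077, SE 0.0662, adjusted p = 0.00112, 0.98 to 1.13 without 1 pair at a time). Its promoter is printed in the same way (plus strand, chr8:45885237-45885536), with 1 CAGCTG, in capitals, beginning 139 bases before the start and no CAGATG.
*Pdlim3*: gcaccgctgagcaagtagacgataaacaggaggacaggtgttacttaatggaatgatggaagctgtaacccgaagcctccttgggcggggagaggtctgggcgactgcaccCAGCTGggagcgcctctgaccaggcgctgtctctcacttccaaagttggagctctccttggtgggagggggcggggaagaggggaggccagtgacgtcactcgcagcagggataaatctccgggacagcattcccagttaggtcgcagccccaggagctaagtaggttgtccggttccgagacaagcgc

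The named rises included transcription factors of low level, described together here after their values were seen. *Pou4f1*, a POU-domain factor of sensory and other brainstem neurons, was at 2.79, 2.88 and 3.48 CPM in control and 4.83, 4.93 and 4.82 CPM in S193A libraries (log2 change 0.68, SE 0.0920, adjusted p = 0.0250). *Myod1*, the muscle determination factor, which belongs to the same helix-loop-helix class as *Atoh1*, was at 1.04, 0.683 and 0.539 CPM in control and 2.06, 1.94 and 1.44 CPM in S193A libraries (log2 change 1.29, SE 0.148, adjusted p = 0.0138). *Neurog1*, another proneural factor of this class, was at 0.146, 0.127 and 0.0998 CPM in control and 0.893, 0.325 and 0.299 CPM in S193A libraries, and its counts were 15 to 22 UMIs per control and 32 to 164 per S193A library (log2 change 1.94, SE 0.299, adjusted p = 0.0409). The S193A library of replicate 1 gave the highest value by far, and the *Neurog1* call was lost in every fit without 1 pair (log2 change 1.45 to 2.19). *Dmrta2*, a doublesex-related factor, rose from 2.71, 2.12 and 2.42 to 3.97, 4.66 and 4.32 CPM (log2 change 0.83, SE 0.117, adjusted p = 0.0316). Among 31 factors of other brainstem neurons, *Pou4f1* and *Neurog1* were the 2 that passed, both higher, and the median of the list was 0.10. *Isl1*, a LIM-homeodomain factor in that list, fell just outside the threshold at 5.24, 7.14 and 4.55 CPM in control and 8.43, 11.7 and 10.5 CPM in S193A libraries (log2 change 0.87, SE 0.111, adjusted p = 0.0502), with no overlap between genotypes.

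*Pnoc*, the precursor of the neuropeptide nociceptin, was at 2.38, 2.80 and 3.97 CPM in control and 4.48, 5.503 and 6.62 CPM in S193A libraries (log2 change 0.87, SE 0.0820, adjusted p = 0.00791). *Bcas1*, best known from newly myelinating oligodendrocytes, went from 18.02, 17.4 and 17.0 to 25.4, 28.5 and 24.6 CPM (log2 change 0.58, SE 0.0517, adjusted p = 0.00601). The remaining named rises are given with the log2 change in brackets. *G0s2*, an inhibitor of lipolysis (0.81), *Klhl14*, a Kelch protein (1.16), *Adamts19*, a secreted metalloprotease (1.09), *Gucy1a1*, a subunit of soluble guanylate cyclase (0.48), and the non-coding *Gm17750* (0.51) were higher at edgeR adjusted p-values between 0.0125 and 0.0336. *Gdf10*, a growth factor of the BMP family made by radial and Bergmann glia, was called (log2 change 0.70, SE 0.101, adjusted p = 0.0316) with values that overlapped, 3.50, 1.91 and 3.46 CPM in control and 5.54, 2.64 and 6.61 CPM in S193A libraries.

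**Figure D2:**
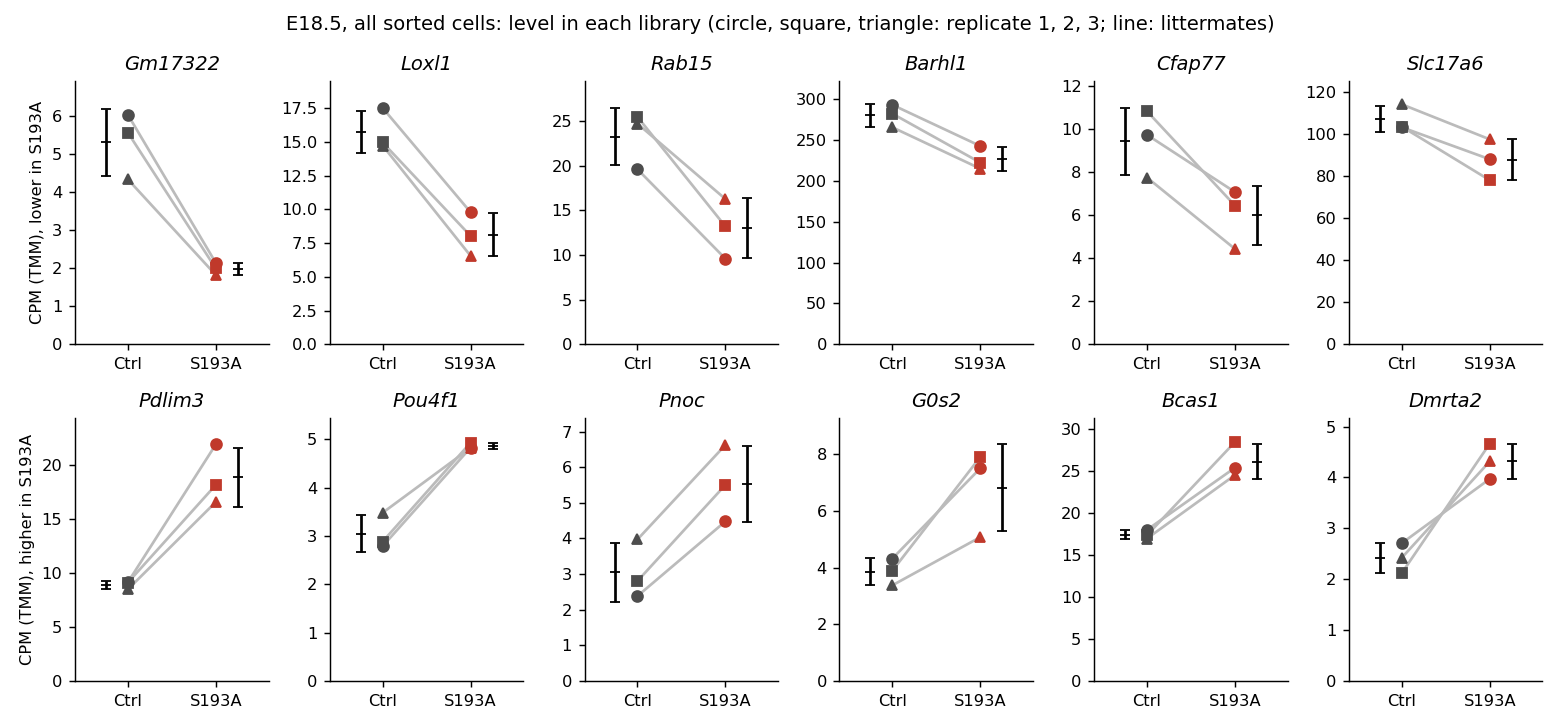
Levels of 12 called genes (CPM, vertical axes from 0) in the 3 control (grey) and 3 S193A (red) libraries over all sorted cells, with lines joining littermates and bars giving mean ± SD (n = 3). The genes shown are among the 47 called genes without overlap between genotypes. That every S193A library lies on the same side of its littermate, with no overlap, therefore follows from this choice. By log2 change, which the panels do not show, *Gm17322* falls the furthest of the upper row and *Pdlim3* rises the most of the lower row.

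*Atoh1* itself was not called over all sorted cells. Its level was 35.7, 35.0 and 28.1 CPM in control and 54.3, 42.9 and 30.2 CPM in S193A libraries, higher in each mutant than in its littermate and with overlapping groups (log2 change 0.34, SE 0.110, adjusted p = 0.598). The WPRE tag of the reporter overlapped between genotypes (381, 339 and 283 against 381, 366 and 262 CPM, log2 change -0.00137, SE 0.0472, adjusted p = 0.998). Of the genes the study names for its single-cell results, *Barhl1*, *Rab15* and *Slc17a6* were called here. *Ccnd1*, cyclin D1, was at 163, 142 and 117 CPM in control and 171, 159.8 and 122 CPM in S193A libraries (log2 change 0.10, SE 0.0377, adjusted p = 0.530). The Notch components gave no call, with a log2 change of 0.16 for *Notch1*, 0.20 for *Dll1*, -0.24 for *Hes1* and 0.18 for *Hes5* and edgeR adjusted p-values between 0.298 and 0.904. Neither did the axonal protein *Mapt* (log2 change 0.01, adjusted p = 0.981). Among subtype genes the log2 change was -0.16 for *Prox1*, 0.10 for *Ntng1*, -0.11 for *Cdkn1c*, -0.02 for *Etv1*, -0.09 for *Sst* and -0.07 for *Hoxb5*, with adjusted p-values from edgeR between 0.385 and 0.975. The kinase gene *Pak3* had a log2 change of 0.04, adjusted p = 0.911, and *Dap*, a gene tied to cell death, one of -0.09, adjusted p = 0.711. *Ephb1*, a guidance receptor, came nearest to a call (log2 change 0.22, adjusted p = 0.0615). These are sums over all cells, and a change limited to a small population need not appear in them.

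Gene lists for the main processes of this lineage are given by their counts, to be read against the 0.358% of all genes that were called. No member of 37 DNA replication genes, 38 genes of G2 and mitosis, 11 D-type cyclins and Cdk inhibitors, 25 Notch pathway genes, 20 *Bcl2* family genes, 29 granule neuron differentiation genes or 11 unipolar brush cell genes was called. The median log2 changes of these lists lay between -0.03 and 0.06. *Barhl1* was the only called member of 25 rhombic lip and granule progenitor factors (median -0.03) and *Ntn1* the only one of 41 guidance genes (median 0.02). Hox genes of paralog groups 1 to 5 were lower in 9 of 12 (median -0.19) and those of groups 6 to 13 higher in 5 of 7 (median 0.34), with none called in either list, while 8664 of all 17877 genes were above 0. Among transcripts that respond to tissue handling, none of 21 immediate early and stress genes (median 0.06, 15 above 0) and none of 13 mitochondrial transcripts (median -0.03, 5 above 0) was called.

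Markers of other cell types, most of them of cells that the sort should exclude, were measured beside these results. Hair cells and Merkel cells also require *Atoh1*, so the sort itself need not exclude them. Erythroid markers, mostly haemoglobin genes, summed to 72.8 to 223 CPM in control and 4.21 to 44.9 CPM in S193A libraries, and 5 of 5 tested had negative log2 changes with a median of -3.12 and no call by edgeR. *Hbb-bs* alone was at 39.5, 125 and 145 CPM in control and 3.11, 12.7 and 29.1 CPM in S193A libraries (log2 change -3.04, SE 0.404, adjusted p = 0.385). DESeq2, run as an alternative, did call it. Markers of inhibitory neurons, most of whose UMIs were of *Lhx1*, summed to 107 to 136 CPM in control and 126 to 158 CPM in S193A libraries. Of these, 10 of 11 had positive log2 changes, with a median of 0.51 and no call. *Gad2*, which makes GABA, was at 7.17, 7.07 and 10.4 CPM in control and 13.0, 9.43 and 14.6 CPM in S193A libraries (log2 change 0.59, SE 0.0905, adjusted p = 0.0701). *Gdf10* was the one called member of 11 astrocyte and radial glia markers (median 0.10, 331 to 526 CPM in control and 289 to 614 CPM in S193A libraries). None of 9 microglia and macrophage markers was called (8 above 0, median log2 change 0.31, 7.43 to 31.7 CPM in control and 6.22 to 51.0 CPM in S193A libraries), and none of 8 oligodendrocyte lineage markers (3 above 0, median -0.20, 90.0 to 107 CPM in control and 96.0 to 111 CPM in S193A libraries). None was called among 5 choroid plexus and ependymal markers (3 above 0, median 0.06, 7.66 to 169.6 CPM in control and 13.3 to 254 CPM in S193A libraries), where *Ttr* varied most. The same held for 5 Purkinje cell markers (2 above 0, median -0.12, 21.5 to 35.8 CPM in control and 20.1 to 40.1 CPM in S193A libraries) and 5 hair cell and Merkel cell markers (3 above 0, median 0.21, 5.34 to 5.495 CPM in control and 4.96 to 6.58 CPM in S193A libraries). The part of these cells in the called genes was not tested.

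To see where in the population the changes lay, the cells were divided by 2 gates of marker UMIs. Cells with 2 or more UMIs over 12 Hox genes of paralog groups 2 to 5 (13 features, since *Hoxd4* is listed under 2 gene identifiers) are called Hox-positive below, and cells with none were divided into dividing (5 or more UMIs over 30 cell cycle genes) and non-dividing. UMI gates depend on depth, so each class mixes in some cells of its neighbours, and cells with few UMIs fall more often into the non-dividing class. In the dividing class, 157 of 16228 genes were called (0.967%), 76 higher (0.468%) and 81 lower (0.499%), and 137 did not overlap between genotypes, as 8.37% of all genes tested there did not. All 64 genes called over all sorted cells had the same direction in dividing cells and 52 of them were called there too, but those cells make up much of the total, so the 2 counts are not independent. Of the 157 calls, 67 were kept in all 3 fits without 1 pair. Among those described below, the calls of *Pdlim3*, *Pou4f2*, *Ebf2*, *Gad2*, *Atoh1*, *Meis2*, *Grin2c*, *Dll4*, *Mfng*, *Crisp3* and *Krt15* were lost in at least 1 of them. The count was 206 without pair 1, 290 without pair 2 and 98 without pair 3, and 25 when the pairs were ignored.

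In dividing Hox-zero cells *Rab15* was at 18.7, 26.9 and 25.6 CPM in control and 7.51, 8.80 and 9.40 CPM in S193A libraries. Every mutant was under a level of 10 and every control above 18 (log2 change -1.46, SE 0.0699, adjusted p = 4.52e-05). *Hrk*, which encodes a BH3-only protein that promotes cell death, was at 6.04, 4.79 and 7.18 CPM in control and 19.7, 17.7 and 19.5 CPM in S193A libraries. The rise was seen in each pair (log2 change 1.68, SE 0.0870, adjusted p = 5.85e-05) and kept its call without any 1 of them (1.58 to 1.79). Over all sorted cells, *Hrk* was at 14.54, 15.2 and 20.5 against 28.7, 23.8 and 22.6 CPM, with no overlap but uneven steps, and was not called (log2 change 0.59, SE 0.214, adjusted p = 0.706). *Hrk* was also the sole called member of the 20 *Bcl2* family genes in dividing cells, where the list's median was 0.01. The decreases of *Gm17322* (log2 change -1.58, SE 0.0937, adjusted p = 8.03e-05) and *Loxl1* (log2 change -1.004, SE 0.0555, adjusted p = 5.85e-05) and the increase of *Pdlim3* (log2 change 1.09, SE 0.0797, adjusted p = 0.00104) are given for comparison, and none of these 3 overlapped between genotypes. The *Pdlim3* call in this class was lost without pair 3.

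*Pou4f1*, described above over all sorted cells, was in dividing cells at 2.46, 2.47 and 2.39 CPM in control and 5.29, 7.06 and 8.10 CPM in S193A libraries (log2 change 1.44, SE 0.131, adjusted p = 0.00159), and each mutant had more than its littermate. *Neurog2* was at 0.875, 0.560 and 0.531 CPM in control and 2.77, 1.23 and 1.4996 CPM in S193A libraries (log2 change 1.46, SE 0.179, adjusted p = 0.00599). Of 28 other brainstem neuron factors tested there, 5 rose and 2 fell (median 0.03), where 0.967% of all genes in the class were called. Besides *Pou4f1* and *Neurog2*, the rises included *Isl1* (log2 change 0.94, SE 0.0982, adjusted p = 0.00443) and *Neurog1* (log2 change 2.11). The falls were in *Pou4f2* (log2 change -0.80) and *Ebf2* (log2 change -0.64). *Pou4f2* and *Ebf2* are named because they passed, after their values were seen. Without 1 pair at a time the *Pou4f2* call was kept in 1 of 3 fits and the *Ebf2* call in 2. Inhibitory neuron markers in the class summed to 110.1 to 148 CPM in control and 127 to 171 CPM in S193A libraries, with 8 of 10 positive, a median of 0.41 and 1 call, *Gad2* (log2 change 0.97, SE 0.167, adjusted p = 0.0469). Vascular and meningeal markers summed to 10.8 to 23.7 CPM in control and 22.9 to 39.1 CPM in S193A libraries, with 8 of 12 positive, a median of 0.74 and 1 call, the endothelial *Cldn5* (log2 change 1.00, SE 0.170, adjusted p = 0.0306), lost without pair 3. The median log2 change in the class was 0.15 for astrocyte and radial glia, -0.18 for microglia and macrophage, -0.48 for choroid plexus and ependymal and -1.41 for erythroid markers. Their part in these results was not tested. *Atoh1* was called in this class, at 41.5, 48.1 and 42.9 CPM in control and 61.5, 59.8 and 52.1 CPM in S193A libraries (log2 change 0.39, SE 0.0596, adjusted p = 0.0234). *Barhl1* was lower (log2 change -0.33, SE 0.0394, adjusted p = 0.00487), and so was *Meis2*, a homeobox factor also named after its values were seen (log2 change -0.55, SE 0.0716, adjusted p = 0.00904).

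In dividing cells the Notch ligand *Dll4* was higher (log2 change 0.81, SE 0.156, adjusted p = 0.0481) and *Mfng*, a glycosyltransferase that modifies Notch, lower (log2 change -0.28, SE 0.0469, adjusted p = 0.0274), the only 2 calls among 24 Notch pathway genes. The *Dll4* call was kept in none of the fits without 1 pair and the *Mfng* call in 1 of 3. *Epha3*, an ephrin receptor, rose from 50.9, 51.0 and 57.3 to 75.4, 78.0 and 73.2 CPM (log2 change 0.51, SE 0.0539, adjusted p = 0.00331). *Slc17a6* fell from 73.2, 75.1 and 77.1 to 58.8, 53.4 and 58.2 CPM (log2 change -0.40, SE 0.0454, adjusted p = 0.00352). The NMDA receptor genes *Grin2a* (log2 change -0.65, SE 0.0760, adjusted p = 0.00443) and *Grin2c* (log2 change -0.67, SE 0.0940, adjusted p = 0.0106) fell with it, the only 2 calls among 33 glutamate and GABA receptor genes, of which 22 had positive log2 changes (median 0.03). Cell cycle genes mostly had positive log2 changes without any call, namely 33 of 37 DNA replication genes (median 0.06) and 38 of 38 genes of G2 and mitosis (median 0.13), against 8151 of 16228 genes over all. Many of those genes define the gate, so their levels inside it are partly set by it. Other named extremes were *Crisp3* (log2 change -2.86, SE 0.315, adjusted p = 0.00331) and the keratin *Krt15* (log2 change -1.96, SE 0.299, adjusted p = 0.0261), at no more than 2.40 and 1.97 CPM in any library.

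**Figure D3:**
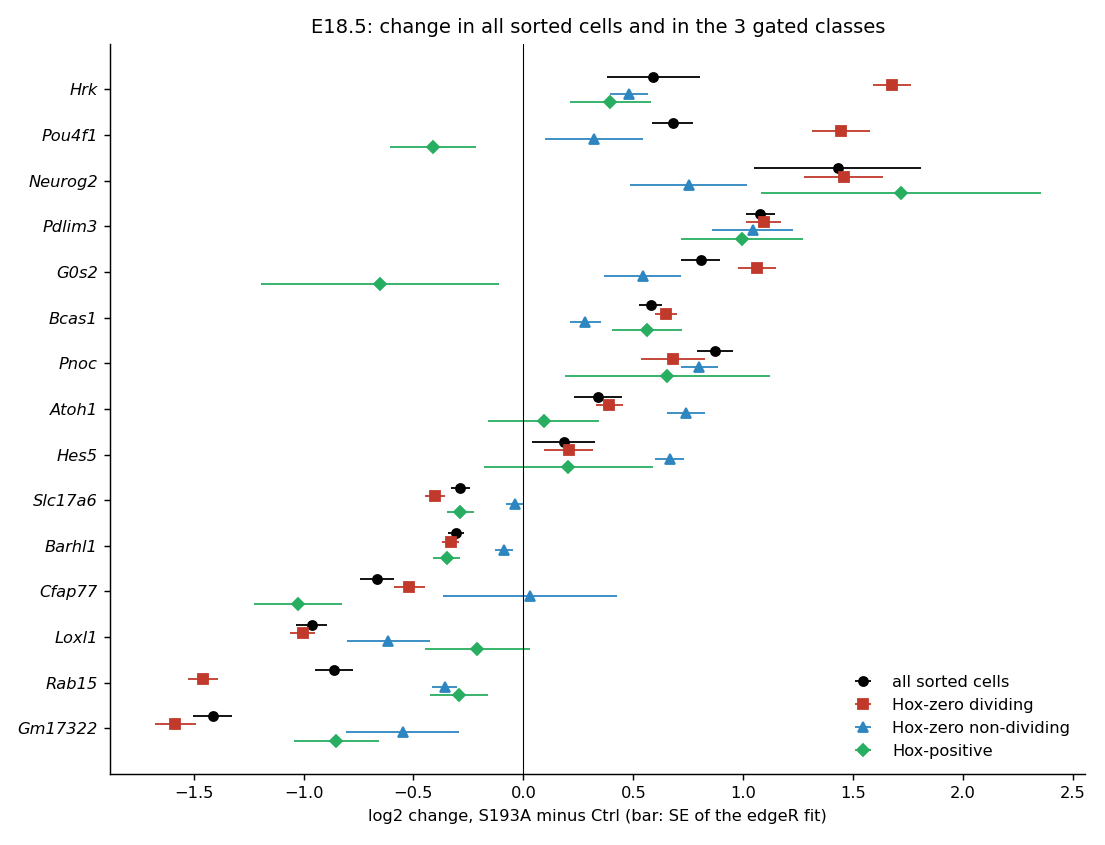
The log2 change (S193A minus Ctrl, horizontal axis, bars of 1 SE derived from the edgeR F statistic, n = 3 pairs) of 15 genes is shown for all sorted cells and for the 3 gated classes. *Hrk*, *Pou4f1* and *Rab15* are further from 0 in dividing cells than in any other class, *Atoh1* and *Hes5* are highest in non-dividing cells, and *Pdlim3* lies near 1 in all 4.

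In Hox-zero non-dividing cells 21 of 15313 genes were called (0.137%), 15 higher (0.098%) and 6 lower (0.0392%), and 6 of the 21 kept the call in all 3 fits without 1 pair. The count was 28 without pair 1, 45 without pair 2 and 12 without pair 3, and 0 when the pairs were ignored (390 genes at an unadjusted p below 0.05). The genotypes did not overlap for 16 of the 21, against 6.99% of all genes tested in the class. *Atoh1* was at 10.3, 11.1 and 10.2 CPM in control and 20.4, 18.6 and 14.4 CPM in S193A libraries, with the groups apart (log2 change 0.74, SE 0.0859, adjusted p = 0.00684). *Hes5*, a Notch target of progenitors, was at 14.9, 13.9 and 11.6 CPM in control and 26.0, 20.5 and 18.05 CPM in S193A libraries (log2 change 0.67, SE 0.0664, adjusted p = 9.96e-04). *Pnoc* was at 7.20, 6.71 and 7.73 CPM in control and 12.6, 12.5 and 12.5 CPM in S193A libraries (log2 change 0.80, SE 0.0829, adjusted p = 0.00114). All 3 genes were higher in every mutant than in any control. Inhibitory neuron markers in the class summed to 79.4 to 119 CPM in control and 94.4 to 149 CPM in S193A libraries, with 9 of 10 positive and a median of 0.41. Their 1 call, *Tfap2b* (log2 change 0.93, adjusted p = 0.0118), was kept in 2 of 3 fits without 1 pair. Erythroid markers had negative log2 changes in 4 of 4 (median -3.58, 154 to 430 CPM in control and 0.736 to 84.0 CPM in S193A libraries), with no call. The part of both lists in these results was not tested. Of the homeobox and nuclear receptor genes, *Barx2* rose (log2 change 0.91, SE 0.127, adjusted p = 0.0118). *En1* fell from 101, 116 and 125 to 62.8, 85.5 and 93.1 CPM (log2 change -0.51, SE 0.0538, adjusted p = 0.00522), and *Rorb*, named after its values were seen, fell as well (log2 change -0.44, SE 0.0522, adjusted p = 0.00682). *Rab15* was lower by a smaller step than in dividing cells (log2 change -0.36, SE 0.0564, adjusted p = 0.0232), and *Gfap*, an astrocyte filament, fell at low level (log2 change -1.71, SE 0.267, adjusted p = 0.0227). Neither call was kept in any fit without 1 pair, the *Barx2* call was kept in 1 of 3 and the *Atoh1* call in 2. The subtype gene *Cdkn1c*, not called over all sorted cells, was called higher in this class. Its call was kept in 0 of 3 fits without 1 pair (log2 change 0.24 to 0.33). *Mgp*, a matrix protein of vascular and other mesenchymal cells, was listed at 4.54, 2.24 and 0.493 CPM in control and 0.383, 0.0515 and 0.0549 CPM in S193A libraries (edgeR adjusted p = 7.19e-04). It passed the filter on low counts through the control libraries, where it was higher, so its adjusted p adds no support of its own.

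The cytokine *Il1b* was called in the non-dividing class as well, at 0, 0 and 0.0329 CPM in control and 0.972, 2.99 and 2.63 CPM in S193A libraries (edgeR adjusted p = 5.44e-05). It passed the filter on low counts only through the S193A libraries, where it was higher, so its adjusted p adds no support of its own. All 9 microglia and macrophage markers were higher in that class, with a median of 1.88 and no call, and their summed level was 4.93 to 15.4 CPM in control and 16.7 to 57.7 CPM in S193A libraries. Their part in the *Il1b* result was not tested.

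Among Hox-positive cells, 13 of 14735 genes were called (0.0882%), 8 higher (0.0543%) and 5 lower (0.0339%). The genotypes did not overlap for 12 of the 13, against 7.02% of all genes tested in the class. Here the inhibitory enzyme *Gad2* was at 34.2, 33.4 and 30.1 CPM in control and 57.5, 66.1 and 56.6 CPM in S193A libraries (log2 change 0.88, SE 0.0689, adjusted p = 0.0204), and no S193A library came near a control one. *Gdf10* was at 5.00, 2.23 and 3.68 CPM in control and 12.2, 8.59 and 12.6 CPM in S193A libraries, again with no overlap (log2 change 1.63, SE 0.161, adjusted p = 0.0277). The dominant-negative helix-loop-helix factor *Id3* (log2 change 1.10, SE 0.105, adjusted p = 0.0277) and *Sostdc1*, a secreted BMP and Wnt modulator (log2 change 0.77, SE 0.0769, adjusted p = 0.0277), rose with them. Among the falls, the LIM-homeodomain factor *Lhx2* was at 20.1, 14.2 and 16.4 CPM in control and 9.19, 6.94 and 7.03 CPM in S193A libraries (log2 change -1.13, SE 0.102, adjusted p = 0.0206). *Bcl11b* was at 103, 108 and 89.7 CPM in control and 59.1, 69.2 and 58.3 CPM in S193A libraries (log2 change -0.69, SE 0.0595, adjusted p = 0.0206). *Mab21l1* was at 120.1, 99.9 and 92.1 CPM in control and 76.8, 67.7 and 61.2 CPM in S193A libraries (log2 change -0.60, SE 0.0532, adjusted p = 0.0206). *Lhx2* was the one called member of 25 rhombic lip and granule progenitor factors in the class (median -0.19) and *Mab21l1* that of 16 pontine subtype genes (median -0.10). *Lhx2*, *Bcl11b* and *Mab21l1* separated the genotypes, as did the non-coding *Gm2694* (log2 change -0.70) and *Optc*, a small matrix proteoglycan (log2 change -1.05). Of 11 astrocyte and radial glia markers, which include *Gdf10*, 8 were above 0 in the class (median log2 change 0.15, 506 to 630.3 CPM in control and 391.95 to 1069 CPM in S193A libraries), as were 3 of 3 choroid plexus and ependymal markers (median 0.18, 6.21 to 12.7 CPM in control and 7.65 to 210.0 CPM in S193A libraries). Summed inhibitory neuron markers in the class ran at 116 to 136 CPM in control and 149.5 to 161 CPM in S193A libraries. Erythroid markers had negative log2 changes in 3 of 3 (median -6.41, 1.46 to 474 CPM in control and 0.318 to 4.07 CPM in S193A libraries), with no call. The part of these lists in the results was not tested. Of the genes of G2 and mitosis, 38 of 38 had negative log2 changes (median -0.42), none of them called, against 7373 of 14735 genes over all. Their summed level overlapped between genotypes, at 1385 to 1949 CPM in control and 738 to 2481 CPM in S193A libraries. Their part was not tested either. None of the 13 genes kept its call in all 3 fits without 1 pair. The count was 1163 without pair 1, 5 without pair 2 and 0 without pair 3 (554 genes at an unadjusted p below 0.05), and 0 by edgeR when the pairs were ignored (445 genes at an unadjusted p below 0.05).

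The difference between classes was then tested directly in 1 edgeR model over class-by-library sums, an analysis added after the data were seen. Between dividing and non-dividing Hox-zero cells the genotype effect differed for 63 of 16119 genes (0.391%), 23 with a higher (0.143%) and 40 with a lower value in dividing cells (0.248%). The change was more negative in dividing cells for *Rab15* (log2 difference -1.11, SE 0.0770, adjusted p = 3.47e-06) and *Barhl1* (log2 difference -0.25, SE 0.0409, adjusted p = 0.0127). The same was true of *Slc17a6* (log2 difference -0.37, SE 0.0423, adjusted p = 4.85e-04), *Sfrp2* (log2 difference -0.69, SE 0.138, adjusted p = 0.0391) and *Grin2a* (log2 difference -0.53, SE 0.0971, adjusted p = 0.0211). It was more positive in dividing cells for *Hrk* (log2 difference 1.18, SE 0.0970, adjusted p = 9.98e-05), *Pou4f1* (log2 difference 1.14, SE 0.220, adjusted p = 0.0336) and *Bcas1* (log2 difference 0.36, SE 0.0702, adjusted p = 0.0337). For *Atoh1* (log2 difference -0.36, SE 0.0659, adjusted p = 0.0211), *Hes5* (log2 difference -0.48, SE 0.0634, adjusted p = 0.00278) and *Hes1* (log2 difference -0.61, SE 0.101, adjusted p = 0.0444) it was more positive in non-dividing cells. Several of these genes were named for their change in 1 of the 2 classes, which the same libraries enter. For *Gm17322* (log2 difference -1.03, SE 0.227, adjusted p = 0.0639) and *Pdlim3* (log2 difference 0.02, SE 0.240, adjusted p = 0.998) no difference between the classes was called. Between Hox-positive and dividing Hox-zero cells the effect differed for 6 of 16313 genes (0.0368%), 2 with a higher (0.0123%) and 4 with a lower value in Hox-positive cells (0.0245%). They included *Hrk* (log2 difference -1.29, SE 0.0943, adjusted p = 0.0195) and *Mab21l1* (log2 difference -0.61, SE 0.0563, adjusted p = 0.0462). Both had a lower log2 change in Hox-positive than in dividing cells, and *Hrk* was not called in Hox-positive cells. *Rab15* was not among the 6 genes (log2 difference 1.15, SE 0.162, adjusted p = 0.116).

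The shares of the classes themselves were compared library by library. Hox-positive cells made up 13.6, 12.7 and 21.3% of the cells in control and 13.4, 6.28 and 13.2% in S193A libraries, in the order of replicates 1 to 3. The share was lower in the mutant of all 3 pairs, by 4.90 points between the means, and limma on the logit scale gave an adjusted p = 0.113. Non-dividing Hox-zero cells were 22.2, 34.8 and 27.6% of the cells in control and 24.9, 41.7 and 42.2% in S193A libraries, higher in 3 of 3 pairs by 8.07 points (limma adjusted p = 0.130). The share of dividing cells was 53.0, 45.1 and 36.9% of the cells in control and 49.6, 47.7 and 33.6% in S193A libraries (limma adjusted p = 0.739). Cells with a single Hox UMI were 11.2, 7.45 and 14.2% of the cells in control and 12.1, 4.35 and 11.0% in S193A libraries (limma adjusted p = 0.224). No share passed the threshold, and an exact two-sided permutation of 3 against 3 libraries cannot give less than p = 0.1. Without 1 pair at a time, the adjusted p from limma for the Hox-positive share was 0.0325 without pair 1, 0.472 without pair 2 and 0.588 without pair 3, and it was 0.599 when the pairs were ignored. The difference without pair 1 was -7.24 points. Thinning every cell to 3000 UMIs left 5.17, 5.07 and 8.46% of the cells in control and 5.45, 3.04 and 6.53% in S193A libraries as Hox-positive, lower in 2 of 3 pairs. This set aside 37 to 201 cells of a library that held fewer UMIs. In thinned cells 56.4, 60.01 and 58.5% of the cells in control and 56.3, 66.3 and 63.3% in S193A libraries were non-dividing, higher in 2 of 3 pairs.

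**Figure D4:**
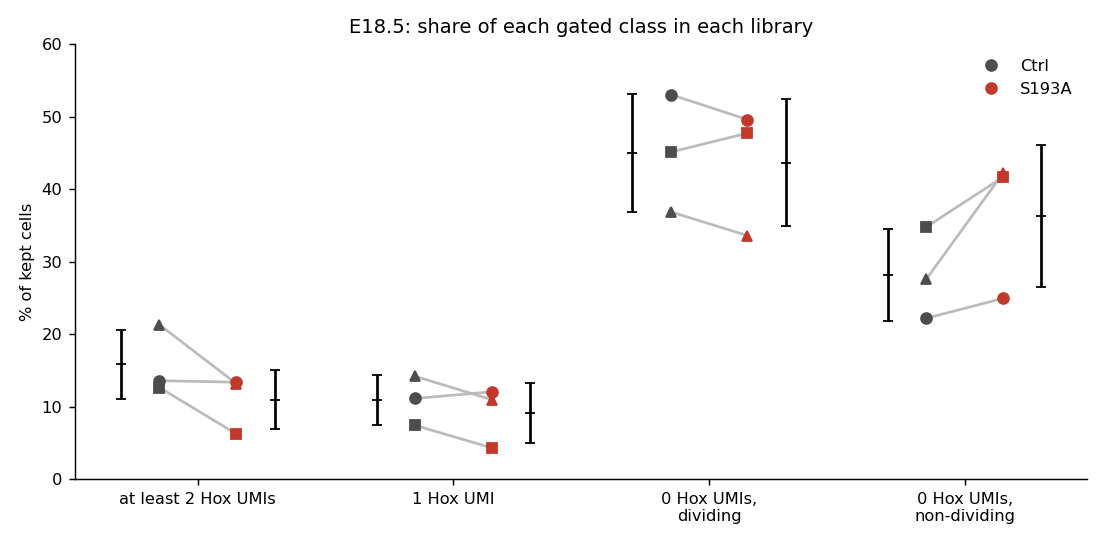
Share of kept cells (%, vertical axis) in each of the 4 gated classes for the 3 control (grey) and 3 S193A (red) libraries, with lines between littermates and mean ± SD (n = 3) beside them. In every pair the S193A share is lower for cells with at least 2 Hox UMIs and higher for non-dividing cells, and the genotypes overlap in all 4 classes.

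The same sums were formed for the 3 Ctrl and 3 S193A embryos of E14.5, when pontine and other precerebellar neurons are still migrating, to ask whether the E18.5 changes were already present. The 64 genes were chosen on their E18.5 values, so what follows describes them. At E14.5, 36 of the 64 had the same sign. By edgeR, 18 were called there in the same direction, 10 in the opposite direction and 36 not at all, where 21% of 19030 genes were called in either direction. A stage-by-genotype test over all 12 libraries called 13.5% of 19030 genes, 6.64% with a higher and 6.83% with a lower value at E18.5. In it, 28 of the 64 genes were called, 13 that were higher at E18.5 and 15 that were lower. The test called 2240 genes without pair 1, 694 without pair 2, 125 without pair 3, each left out at both stages, and 0 when the pairs were ignored (2156 at an unadjusted p below 0.05, by edgeR), and scaling by total UMIs alone turned the split into 660 with a higher and 1660 with a lower value. Software and sex limit this comparison. The files of E14.5 control embryos 1 and 2 name another Cell Ranger version (3.1.0) than those of their littermates and of E18.5 (5.0.1), so version and genotype cannot be told apart in those pairs. The littermates of E14.5 pair 1 also differed in sex, while those of the other pairs were matched, so sex and genotype cannot be told apart there.

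Several of the main genes were called in the same direction at both stages. *Rab15* had a log2 change of -1.07 at E14.5, *Gm17322* of -1.12, *Cyp11a1* of -1.48, *Barhl1* of -0.42 and *Pdlim3* of 1.54, and edgeR called no difference between the stages for any of these 5. *Fbln2* and *Col18a1* were called in opposite directions, at 0.93 and 0.70 at E14.5, and their stages differed (log2 difference -1.26, SE 0.169, adjusted p = 0.00605 for *Fbln2*, log2 difference -1.35, SE 0.111, adjusted p = 0.00143 for *Col18a1*). *Loxl1* had a log2 change of 0.69 at E14.5, not called, and differed likewise (log2 difference -1.66, SE 0.345, adjusted p = 0.0287). The Hedgehog co-receptor *Cdon* turned from 1.02 at E14.5 to -0.42 at E18.5 (log2 difference -1.43, SE 0.115, adjusted p = 0.00143). *Pnoc* went the other way, called at -0.47 at E14.5 and higher at E18.5 (log2 difference 1.34, SE 0.122, adjusted p = 0.00183). *Pou4f1* had -0.33 at E14.5, not called (log2 difference 1.01, SE 0.209, adjusted p = 0.0237). The early rise of *Ccnd1* (log2 change 1.55 at E14.5) and of *Hes1* (log2 change 1.32) was followed by uncalled values at E18.5 (0.10 and -0.24). The stages differed for both (log2 difference -1.45, SE 0.128, adjusted p = 0.00245 for *Ccnd1*, log2 difference -1.56, SE 0.216, adjusted p = 0.0114 for *Hes1*).

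**Figure D5:**
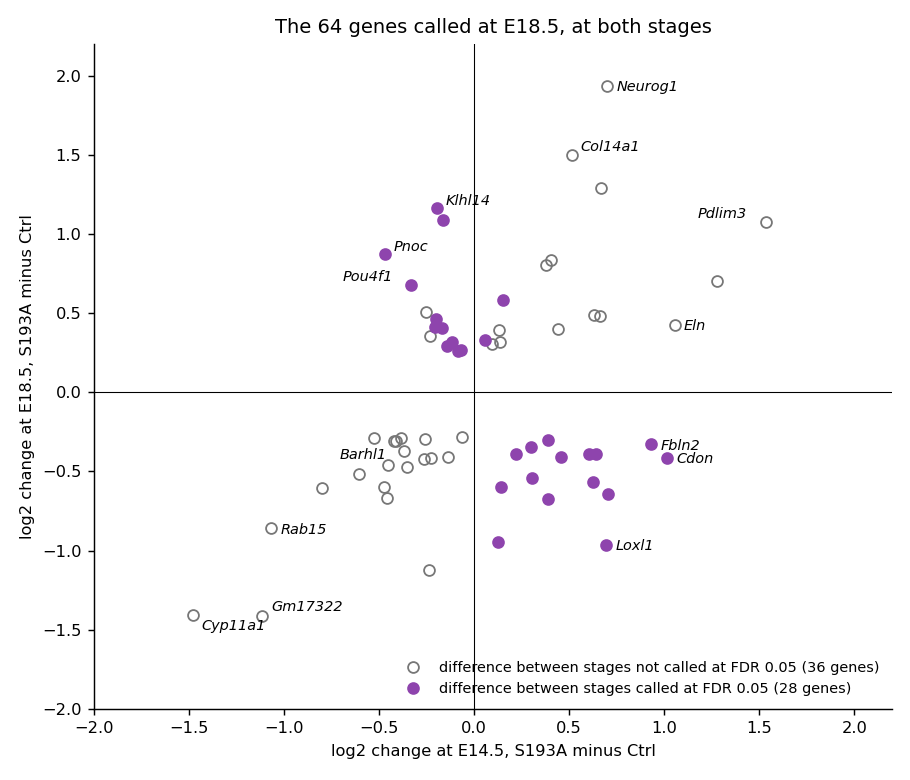
For the 64 genes called at E18.5, the log2 change at E18.5 (vertical axis) is plotted against that at E14.5 (horizontal axis), each S193A minus Ctrl with 3 pairs per stage. Filled points are the 28 genes whose change differed between stages at an adjusted p below 0.05. *Rab15*, *Gm17322*, *Cyp11a1* and *Pdlim3* lie on the same side of 0 at both stages, and *Loxl1*, *Cdon*, *Fbln2*, *Pnoc* and *Pou4f1* on opposite sides.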

How the data were processed

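Single-cell 3' libraries (10x Genomics v3.1) of 6 E18.5 embryos were analysed, with 6 of E14.5 for the stage comparison; the 2 remaining libraries of the series were not used. Per the labels and methods, the authors aligned reads to mm10 with an added WPRE sequence in Cell Ranger 5.0.1 with default parameters, under which that version counts no intronic reads, and deposited filtered matrices of raw UMI counts for 31054 genes, with no normalisation (headers of E14.5 Ctrl 1 and 2 name 3.1.0). A barcode filter was already applied by Cell Ranger. Sexes are those in the study's sample list.

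Cells with at least 1000 genes and under 10% mt- UMIs were kept, doublets were not removed (an alternative took out the 7.5% of highest Scrublet score), and counts were summed per library in Python 3.11.15. The mitochondrial limit of 1% in the methods would leave too few cells and was not used. edgeR 4.0.16 (R 4.3.3) tested genes kept by filterByExpr with TMM scaling, robust quasi-likelihood fits and the littermate pair as a block; shares were tested with limma 3.58.1 and DESeq2 1.42.0 served as an alternative. The SE printed with an edgeR log2 change is the absolute change divided by the square root of the F statistic. With the robust setting the degrees of freedom differ between genes, so the ratio of change to SE does not alone give the p-value. Methods describe littermate controls. Deviations of same-numbered libraries from their group means correlated at 0.428 to 0.683, and of others at -0.466 to 0.183. The members and gene lists were chosen with earlier results of these data known. Genes named are *Atoh1*, WPRE, those the study names, the 12 largest rises and 12 largest falls among called genes without overlap at a mean of 1 CPM or more (5 and 5 in each class and between stages), and up to 4 of smallest p per list; others are said to be chosen after their values were seen, as are *Col18a1*, *Vat1l*, *Fbln1*, *Fbln2*, *Adamtsl1*, *Adamts5* and *Eln*. Only the fit over all sorted cells was tried on simulated counts, with 1 fixed dispersion, which does not cover the fits in gated classes or between stages. Positions are from GENCODE M21 (31011 genes matched) and promoters from RefSeq (42 of 64 called genes). Each library is 1 embryo, and depth limits the precision of genes of few UMIs.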

Additional observations from a re-analysis of the deposited data

Results flagged for a closer look

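The genotype effect differed between E18.5 and E14.5 for 2563 of 19030 genes by the edgeR interaction of stage and genotype, 1263 with a higher and 1300 with a lower value at E18.5. Scaling by total UMIs alone gave 2320 genes, 660 with a higher and 1660 with a lower value. At E14.5 only pair 3 has Cell Ranger 5.0.1 in both files. A single pair has no spread of its own at that stage, so no count is given for it. The part of the software version in the 2563 genes was not tested.

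Differences (log2 change at E18.5 minus that at E14.5) were ranked among called genes whose pairs did not overlap between stages. A mean of 1 CPM or more was asked of at least 1 group only, so a gene can be at a low level in the others. The largest positive ones were in *Nps* (2.98), *Cda* (2.06), *Crybb1* (1.73), *Tfap2b* (1.61) and *Calb2* (1.55). The most negative ones were in *Drc7* (-3.20), *Vip* (-2.99), *Dnah11* (-2.73), *Ppp1r36* (-2.52) and *Baiap2l1* (-2.35). Among genes named for their change at E18.5, the difference between stages was positive for *Klhl14* (1.35), *Pnoc* (1.34), *Adamts19* (1.255), *Pou4f1* (1.01) and *Bcas1* (0.43). It was negative for *Loxl1* (-1.66), *H2-K1* (-1.19), *Osr1* (-1.08), *Pdlim4* (-1.06) and *Sfrp2* (-0.74).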

How the results depend on the processing

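Counts of called genes moved with the litters and with the model more than any single direction did. Without the replicate block, so with the littermate pairing ignored, the count fell from 64 to 0 over all sorted cells (402 genes at an unadjusted p below 0.05), from 13 to 0 in Hox-positive (445), from 157 to 25 in dividing, from 21 to 0 in non-dividing cells (390) and from 2563 to 0 for the stage difference (2156). Leaving out 1 pair at a time gave 13 to 266 genes over all sorted cells, 0 to 1163 in Hox-positive, 98 to 290 in dividing, 12 to 45 in non-dividing cells and 125 to 2240 for the stage difference, in fits with 1 residual degree of freedom per stage. Without a filter on low counts there were 185, 152, 282 and 89 calls in all sorted, Hox-positive, dividing and non-dividing cells. DESeq2 called 148 genes over all sorted and 67 among Hox-positive cells, a mitochondrial limit of 5% gave 125 over all sorted cells, a dividing gate of at least 10 UMIs gave 358, and a non-dividing class with 0 gate UMIs gave 4. All 64 genes were called by DESeq2. Of them, 52 kept the call at a mitochondrial limit of 5%, 43 in limma with the same weight for each cell and 38 in quasi-likelihood fits without the robust setting. They kept their direction under every alternative that gave them a value, each of which used some or all of the same libraries. For shares, leaving out 1 pair at a time gave differences of -7.24 to -3.30 points for Hox-positive cells, -3.16 to -1.09 for cells with 1 Hox UMI, -3.36 to -0.331 for dividing and 4.81 to 10.7 for non-dividing cells. Without pair 1 all but the dividing share passed the threshold, and the dividing share changed sign at a mitochondrial limit of 5% (0.281 points). The cause was not tested.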

Other observations

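Some genes called over all sorted cells are neighbours on a chromosome. *Loxl1* (chr9:58287738-58313186, minus strand) lies 260715 bases from *Cyp11a1*, which overlaps *Gm17322*, on chromosome 9, and of 27 genes tested there, between positions 57504026 and 58743964, 3 were called and 13 were lower, where 0.358% of all genes were called and 9213 of 17877 were lower. The window was placed around those 3 genes, so nothing is read from their number. *Cfap77* lies 10281 bases from *Barhl1* on chromosome 2, and *Hspa2*, also lower at -0.47 and named after its value was seen, lies 391022 bases from *Rab15* on chromosome 12. None of 8 genes tested around *Atoh1* on chromosome 6 was called.

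Promoter letters were counted for the 42 called genes with a RefSeq promoter. CAGATG, on either strand, was in the window of 9 of 26 lower and 0 of 16 higher genes, against 19.2% of all genes in the table, and CAGCTG in 6 of 26 lower and 7 of 16 higher genes, against 18.3%. These counts are descriptions of small numbers with no test.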
